A study of Mus musculus with 3 samples.

Results

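The oral p38 inhibitor LY2228820 was compared with vehicle, gene by gene, in 6 classes of leukocytes sorted from 4T1 mammary tumors. The comparison rests on 8613 of the 12472 cells kept in the series, 3820 from the vehicle library and 4793 from the p38i library. Both groups were female BALB/c mice, 6 to 8 weeks old, that carried 4T1-luc tumors with wild-type p38α in the mammary fat pad after implantation of 200000 cells. 4T1 is a mouse mammary adenocarcinoma line and luc a luciferase reporter. Once tumors could be felt, on day 4, dosing by mouth began and went on for 10 days, with DPBS for vehicle mice and a daily 30 mg/kg of LY2228820 for p38i mice. LY2228820, also known as ralimetinib, inhibits p38α and p38β. Tumors were taken on day 14 and those of 3 mice per group were pooled, and live CD45+ cells were sorted for 10x Genomics 3' single-cell RNA sequencing. A further library, p38KO, came from untreated mice with tumors of 1 CRISPR-Cas9 clone lacking p38α in the tumor cells, and its values are given only beside a few genes. With 1 library per group there was no replicate and no test between groups, so every difference below is between these 2 libraries, and its interval covers counting error only.

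p38α and its relatives are stress-activated kinases that respond to inflammatory signals, and their substrates include the kinases MK2 and MSK1. MSK1 phosphorylates CREB and histone H3 at immediate-early genes such as Fos, while MK2 acts on the RNA-binding protein tristetraprolin (Zfp36) and so prolongs the life of mRNAs with AU-rich elements, among them those of cytokines and Cxcl2. Dusp1 encodes a phosphatase that removes the activating phosphates from p38 and is itself transcribed in response to p38 signalling, which makes it both a target and a brake of the pathway. In inflamed tissue the pathway is known chiefly for its control of cytokine production by myeloid cells.

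Cells were kept with at least 1500 unique molecular identifiers (UMIs, which mark each captured transcript once), at least 300 genes and at most 20% mitochondrial counts. This retained 83.3% of the vehicle barcodes and 75.6% of the p38i barcodes. The libraries held 21675352 and 25996832 UMIs in all, the median kept cell had 3162 and 3038 UMIs, and its median mitochondrial share was 0.671% and 0.968%. Classes were gated on raw counts of a few genes, namely Csf3r and Cxcr2 for neutrophils, Ly6c2 and Fn1 for monocytes, C1qa for macrophages, Cd3e for T cells, Ncr1 for natural killer (NK) cells and Flt3 for dendritic cells (DC). Of the 6 independent markers per class (7 for DC), all were highest in their own class in both libraries, except 1 NK marker listed at 0 in both and 1 of the 7 DC markers in the vehicle library. The CD45 transcript Ptprc was detected in 90.5% and 91.0% of kept cells. The libraries shared 5 kept barcodes.

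Neutrophils were the largest class in both libraries. They made up 45.8% of kept vehicle cells (95% Clopper-Pearson interval 44.2 to 47.4) and 43.3% of kept p38i cells (41.9 to 44.7). Monocytes took 11.5% (10.5 to 12.5) of the vehicle and 15.7% (14.7 to 16.8) of the p38i library. T cells took 14.1% and 13.5%, macrophages 4.01% and 3.51%, NK cells 3.06% and 2.38%, and DC 1.13% and 1.75%. After each cell was thinned to 1500 UMIs before gating, the monocyte shares were 8.56% (7.69 to 9.49) and 10.5% (9.60 to 11.4), so the gap between their intervals narrowed. Cells that met no gate made up 16.6% and 16.9%. The monocyte gate gave way to the macrophage, T cell, NK and DC gates, and 186 vehicle and 136 p38i cells met both it and the T cell gate. Cells that met only the neutrophil and monocyte gates went to the one with more UMIs. Ties and cells that met any other combination, 142 in the vehicle and 146 in the p38i library, were left out as possible doublets.

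**Figure D1:**
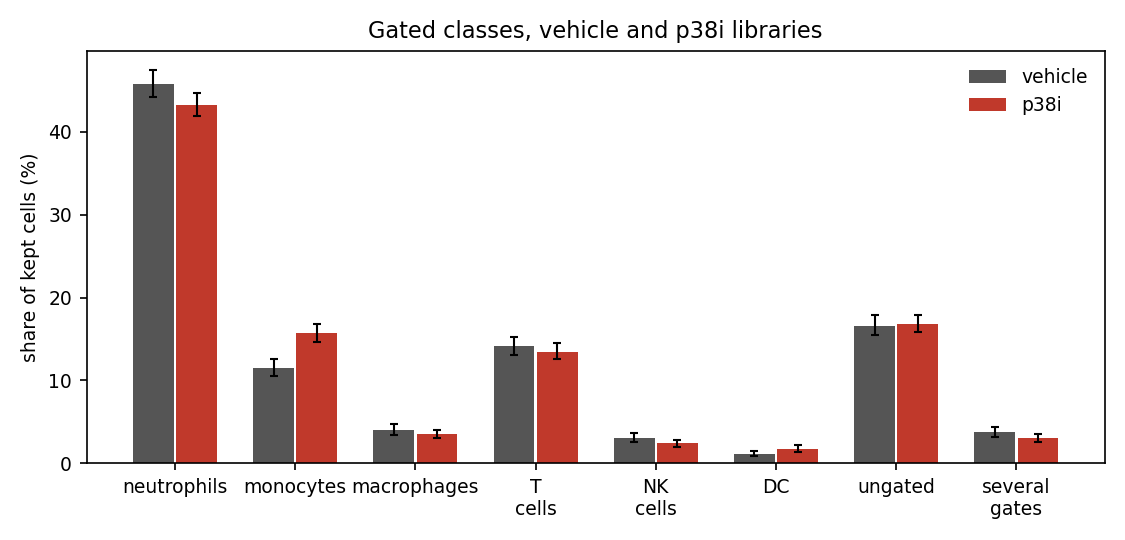
Share of kept cells in each gated class, in percent, for the vehicle (gray) and p38i (red) library, with exact 95% intervals for counting error. Monocytes made up 11.5% of the vehicle and 15.7% of the p38i library. The intervals of every other share overlap between the libraries.

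Counts were then summed over the cells of each class and scaled to counts per 1000000 counts of that class (CPM), and genes with at least 50 counts over both libraries were ranked by the ratio of p38i to vehicle. In neutrophils 126 of 6632 ranked genes were at least 2-fold higher in p38i (1.9%) and 34 were at least 2-fold lower (0.513%). Monocytes had 69 higher (0.841%) and 42 lower (0.512%) of 8200 genes, a balance that turned to 45 and 73 when cells were thinned before gating. Macrophages had 25 higher (0.334%) and 50 lower (0.668%) of 7486 genes. T cells had 104 higher (1.29%) and 42 lower (0.523%) of 8032 genes. NK cells had 40 higher (0.996%) and 69 lower (1.72%) of 4018 genes. DC, with 43 vehicle and 84 p38i cells, had 84 higher (2.16%) and 35 lower (0.898%) of 3896 genes, and 55 and 75 after thinning.

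Many of these ratios fell below 2-fold when a few cells were left out, some of them narrowly. When the 3 cells with the most counts of a gene were left out of the library where it was higher, 49 of the 126 higher and 18 of the 34 lower genes of neutrophils were still 2-fold apart. The same was true of 22 of 69 and 13 of 42 genes in monocytes, 6 of 25 and 11 of 50 in macrophages, and 25 of 104 and 12 of 42 in T cells. In NK cells 3 of 40 higher but 28 of 69 lower genes stayed past the limit, and in DC 24 of 84 and 4 of 35. In DC this step took 3 of 43 vehicle cells from a lower gene but 3 of 84 p38i cells from a higher one. Fewer genes had 1 cell with at least as many counts as all other cells of that class and library. These were 4 of the 126 higher genes in neutrophils, 7 of 104 in T cells and 21 of 40 in NK cells. Among lower genes they were 0 of 34, 9 of 42 and 3 of 69.

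**Figure D2:**
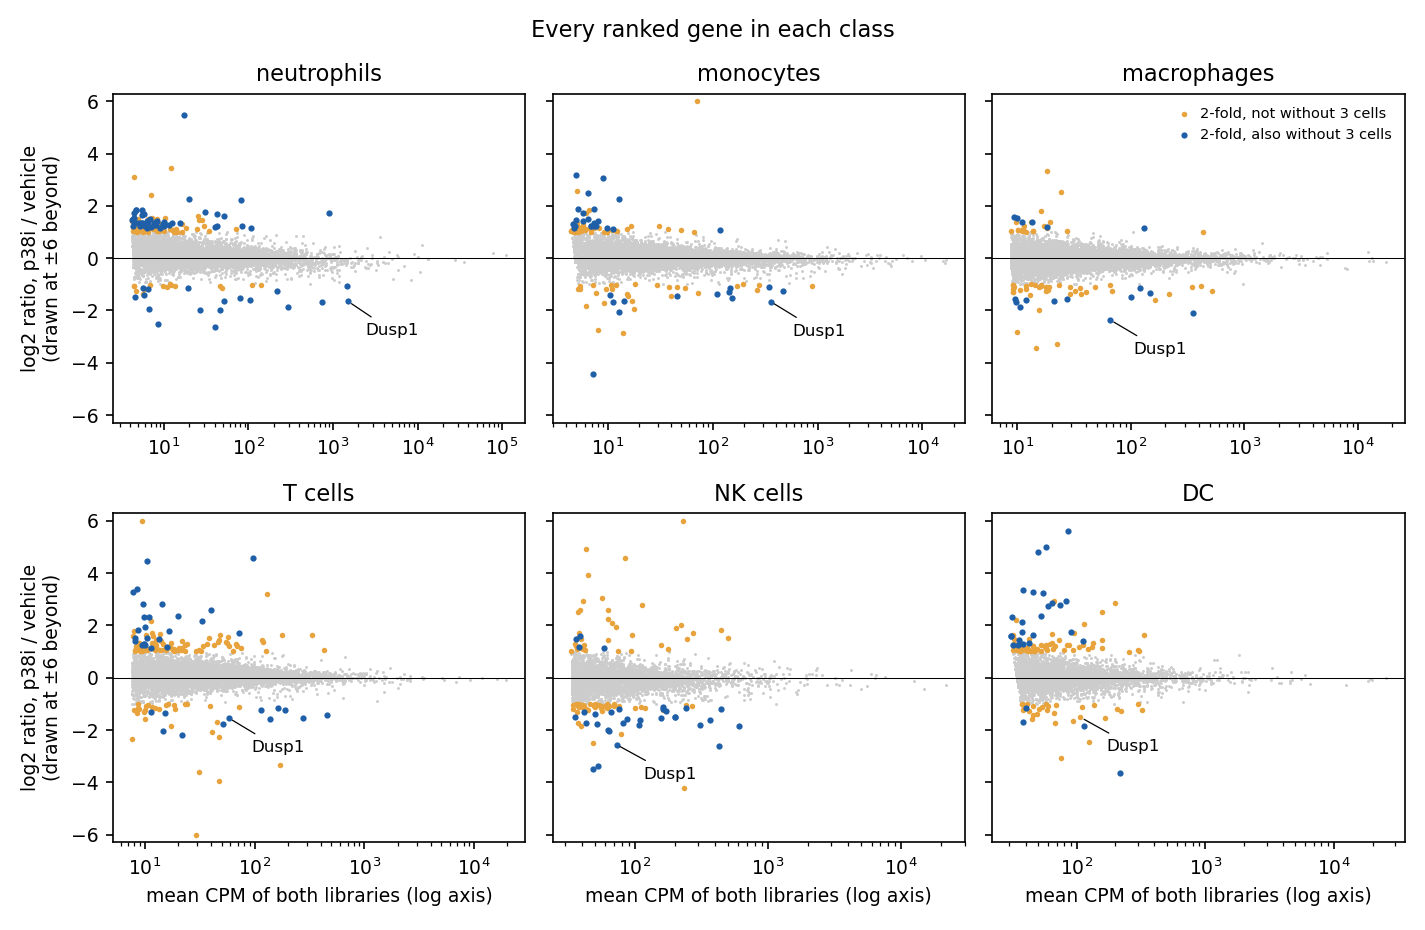
Each point is 1 ranked gene in 1 class, with the mean CPM of both libraries on a log axis and the log2 ratio of p38i to vehicle. Blue points stay 2-fold apart without the 3 cells richest in that gene and orange points do not, and ratios beyond 6, or with 0 counts in 1 library, are drawn at the edge. Dusp1 is marked and is more than 2-fold lower in p38i in all 6 classes, and most extreme NK cell points above 0 are orange.

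Dusp1 was the only gene at least 2-fold lower in all 6 classes, among 2984 genes ranked in every class. In neutrophils it stood at 2287 CPM (95% Poisson interval 2247 to 2328) in the vehicle and 727 CPM (706 to 749) in the p38i library, a log2 ratio of -1.65 (-1.70 to -1.60). Monocytes held 545 and 172 CPM, a log2 ratio of -1.67 (-1.77 to -1.56). Macrophages held 110 and 21.4 CPM, a log2 ratio of -2.36 (-2.78 to -1.96). Dusp1 was lower in the lymphoid classes too. T cells had 86.3 CPM of Dusp1 in the vehicle and 29.7 CPM in the p38i library (log2 ratio -1.54, -1.89 to -1.20), and NK cells had 125 and 21.2 CPM (-2.56, -3.43 to -1.78, and -1.62 without 3 cells). DC had 158 and 55.5 CPM (-1.51), and here alone the difference shrank below 2-fold without 3 cells (-0.77). Ungated cells held 1235 and 447 CPM. The neutrophil marker S100a8 was detected in 527 of 635 and 659 of 808 ungated cells, so they cannot be taken as apart from neutrophils. All kept cells together, which include the classes above, held 904 and 299 CPM.

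The lower level of Dusp1 went with fewer cells that had any Dusp1 UMI. At 1500 UMIs per cell, 76.1% (74.0 to 78.1) of vehicle neutrophils and 49.1% (46.9 to 51.2) of p38i neutrophils had at least 1. Monocytes showed 39.2% and 20.3%, and T cells 13.5% and 4.49%. Over the same T cells the summed level of the 6 neutrophil markers, which free RNA in the droplets can carry into other classes, was 817 CPM in the vehicle and 1541 CPM in the p38i library. This difference lay in few cells, since S100a8 and S100a9 had log2 ratios of 1.07 and 0.79 there and -0.16 and -0.22 without 3 cells, and the part of such RNA in the Dusp1 values was not tested. In the p38KO library Dusp1 was below the vehicle in all 6 classes. It stood there at 166 CPM in monocytes and at 1502 CPM in neutrophils, the latter between the other 2 libraries. In p38KO macrophages, T cells, NK cells and DC it stood at 32.8, 50.2, 52.7 and 48.7 CPM. Over all kept p38KO cells it stood at 371 CPM. The p38KO and p38i libraries share the vehicle library as their control. Of the other MAP kinase phosphatases, Dusp2 was at least 2-fold lower in T cells (266 and 114 CPM) and NK cells (551 and 180.5 CPM), also without 3 cells (-1.16 and -1.50). Dusp5, which acts on ERK, was lower in NK cells (229.6 and 99.5 CPM, and -1.02 without 3 cells). Dusp10, which acts on p38 and JNK, was higher in neutrophils at a low level (3.35 and 9.10 CPM, log2 ratio 1.44, 0.65 to 2.29), with 51 p38i and 16 vehicle cells positive.

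**Figure D3:**
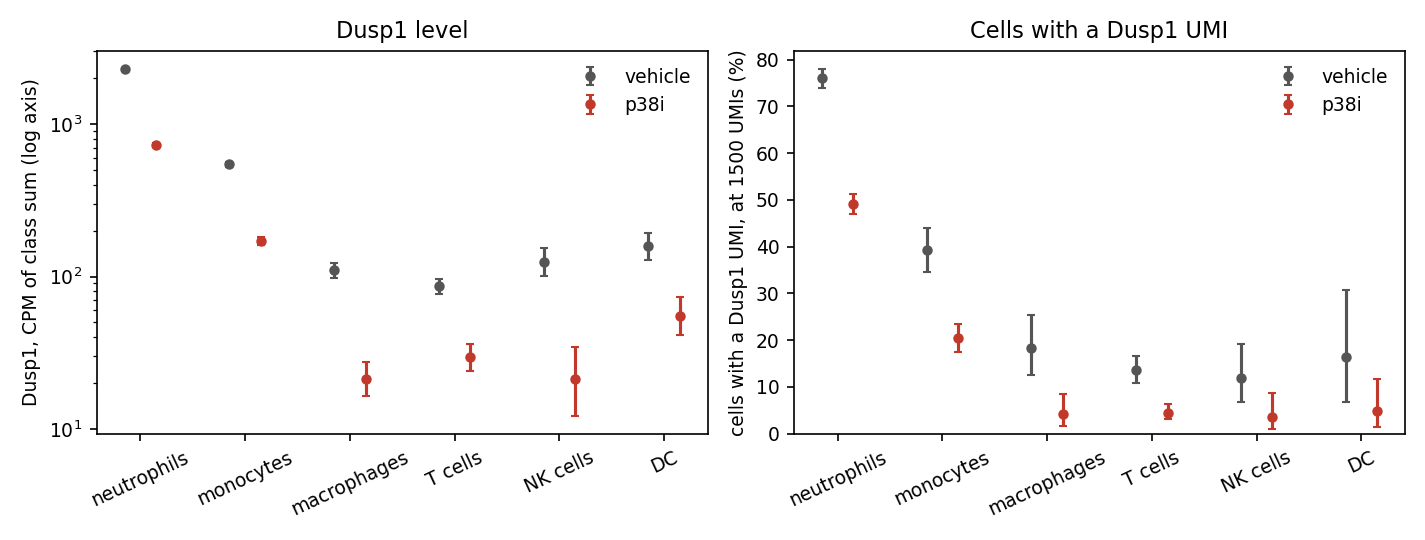
Dusp1 in the 6 classes of the vehicle (gray) and p38i (red) library, as CPM of the class sum on a log axis with exact Poisson 95% intervals (left) and as the percentage of cells with a UMI at 1500 UMIs per cell with Clopper-Pearson 95% intervals (right). The p38i point lies below the vehicle point in every class, from 76.1% to 49.1% of cells in neutrophils and from 13.5% to 4.49% in T cells.

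Other early-response genes were lower in several classes. Of the 9447 genes ranked in any class, 11 were at least 2-fold lower in 3 or more classes, and 3 were at least 2-fold higher in 3 or more. Without the 3 richest cells these counts were 4 and 0. After Dusp1 the widest was Fos, the AP-1 subunit, lower in 5 classes. Fos stood at 667 and 276 CPM in monocytes (log2 ratio -1.27, -1.36 to -1.19), 213 and 83.6 CPM in macrophages (-1.35), 53.2 and 24.9 CPM in T cells (-1.09), 96.2 and 9.29 CPM in NK cells (-3.37, -4.74 to -2.25) and 454 and 195 CPM in DC (-1.22). Without 3 cells it stayed 2-fold lower in monocytes, macrophages and NK cells. In neutrophils Fos was lower by less than 2-fold, with 842 and 540 CPM (-0.64, -0.71 to -0.58). Rgs1, which damps signalling from chemokine receptors, was lower in monocytes, macrophages, T cells and NK cells, with log2 ratios of -1.53, -2.08, -1.53 and -2.60, and of -1.35, -1.98, -1.43 and -2.32 without 3 cells. In DC its ratio was the other way (49.9 and 97.4 CPM, 0.96), and this turned to -0.16 without 3 cells. Tsc22d3, the glucocorticoid-induced leucine zipper, was 2-fold lower in neutrophils, T cells, NK cells and DC but close to even in macrophages (58.9 and 52.7 CPM). It stayed past the limit without 3 cells in T and NK cells and not in neutrophils and DC.

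The same group held Zfp36, which encodes tristetraprolin, and the antiproliferative gene Btg2. Zfp36 stood at 477 and 219 CPM in monocytes (log2 ratio -1.12), 165 and 74.4 CPM in macrophages (-1.15) and 287 and 127 CPM in DC (-1.18), the last of which was at -0.71 without 3 cells. Btg2 stood at 371 and 182 CPM in monocytes (-1.03), 147 and 52.7 CPM in macrophages (-1.48) and 482.5 and 139 CPM in NK cells (-1.79), and the first was at -0.98 without 3 cells. Fosb, Cd69, Ccrl2 and the interferon-induced protease Usp18 were the others lower in 3 classes. Without 3 cells Fosb stayed 2-fold lower in 3 classes, Cd69 in 2, Usp18 in 1 and Ccrl2 in 0. Cxcl2, the neutrophil chemokine, was 2-fold lower in 4 classes, but in none of the 4 without the 3 richest cells. Its level was highest in neutrophils, at 10734 CPM in the vehicle and 6079 CPM in the p38i library (log2 ratio -0.82, -0.84 to -0.80), a difference under 2-fold that barely moved without 3 cells (-0.79).

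**Figure D4:**
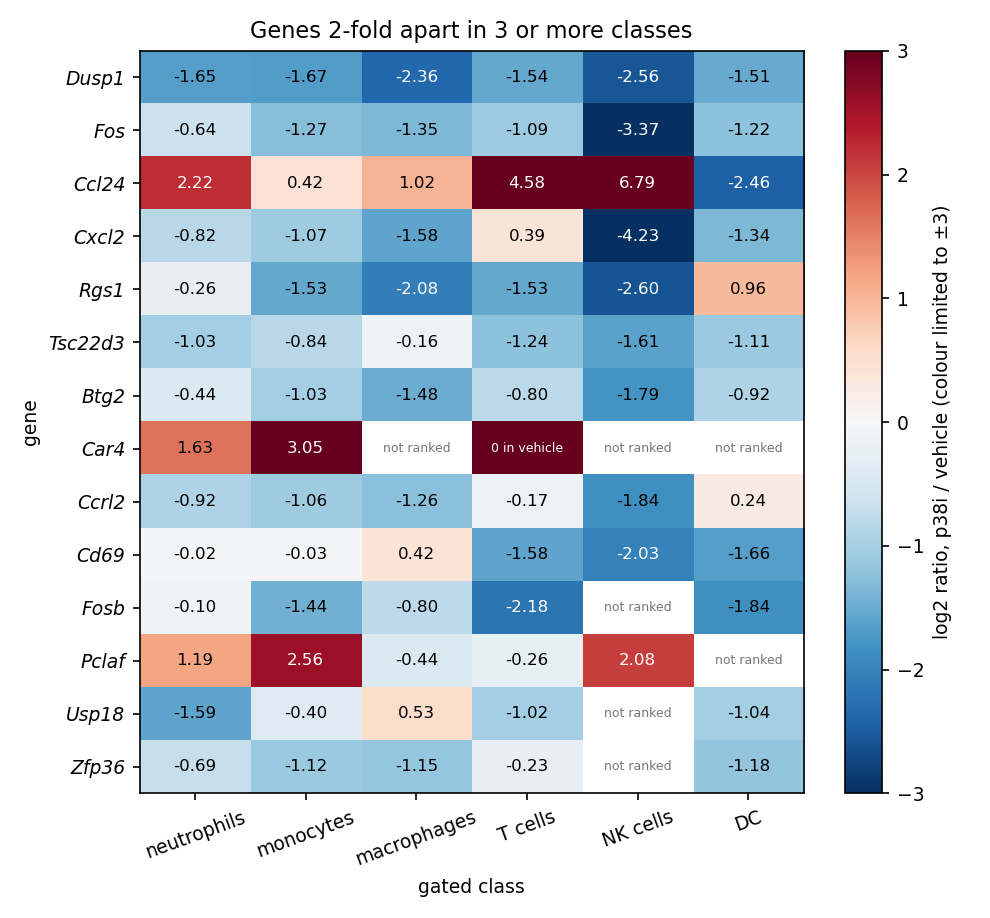
Log2 ratio of p38i to vehicle (number and color, blue for lower and red for higher in p38i) for the 14 genes at least 2-fold apart in 3 or more classes, by gated class. Dusp1 is below -1.5 in every column, Fos is lower in all with -0.64 in neutrophils, and Ccl24 runs from 6.79 in NK cells to -2.46 in DC.

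The promoter windows of Dusp1 and Fos are shown because these genes were lower in more classes than any others. Each is a 300-base RefSeq window around the start site, most of it upstream, written 5' to 3' on the gene's strand, and capitals mark the cAMP-response element half-site TGACGT or its complement ACGTCA, which together form the full element TGACGTCA bound by CREB. Dusp1 lies on the minus strand at chr17:26508423-26508722 and Fos on the plus strand at chr12:85473640-85473939, both in GRCm38.p6.
Dusp1: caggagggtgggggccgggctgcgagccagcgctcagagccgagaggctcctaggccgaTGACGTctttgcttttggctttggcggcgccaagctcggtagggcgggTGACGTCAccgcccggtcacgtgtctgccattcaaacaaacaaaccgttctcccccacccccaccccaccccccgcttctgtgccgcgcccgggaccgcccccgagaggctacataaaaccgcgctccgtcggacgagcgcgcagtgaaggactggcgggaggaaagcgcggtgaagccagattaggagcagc
Fos: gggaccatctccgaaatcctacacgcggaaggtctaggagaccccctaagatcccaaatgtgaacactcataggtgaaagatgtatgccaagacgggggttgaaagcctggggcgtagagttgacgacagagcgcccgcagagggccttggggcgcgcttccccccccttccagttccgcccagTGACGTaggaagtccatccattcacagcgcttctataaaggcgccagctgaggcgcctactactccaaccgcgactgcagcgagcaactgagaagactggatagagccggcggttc
The full element stood once in the Dusp1 window, with a separate half-site upstream of it, and Fos held 1 half-site. Among all 32851 windows of this length, 1.79% held TGACGTCA and 7.51% held TGACGT on either strand, and the second share contains the first. These matches describe letters and say nothing of binding. Of the 11 genes lower in 3 or more classes, 8 had a window, and 2 of the 8 (Dusp1 and Btg2) held the full element while 4 (Dusp1, Fos, Btg2 and Ccrl2) held a half-site. None of the 8 held the AP-1 motif TGANTCA, which 7.81% of all windows held.

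In neutrophils 6 of the 10 lowest-ranked genes were type I interferon-stimulated genes. Of 30 genes on that list 28 were ranked in neutrophils, of which 10 were at least 2-fold lower in p38i and 0 higher, beside 0.513% and 1.9% of all genes, and 9 of the 10 remained so without 3 cells. The median log2 ratio of the list was -0.69 against 0.10 over all ranked genes. Ifit1, which binds viral RNA, stood at 459 CPM in the vehicle and 127 CPM in the p38i library (log2 ratio -1.85, -1.97 to -1.74). Rsad2, which encodes the antiviral enzyme viperin, stood at 1134 and 353 CPM (-1.68, -1.75 to -1.61). Isg15, a ubiquitin-like modifier, stood at 2004 and 952 CPM (-1.07). Ifit3b was the lowest gene of all 6632, with 68.4 and 11.0 CPM (-2.63, -3.03 to -2.26). Ifit3, Ifit2, Usp18, Cmpk2 and Oasl1 had log2 ratios of -1.97, -1.63, -1.59, -1.51 and -1.24. Ifit3 and Ifit3b are close copies that lie side by side, and reads that match both could be split between them.

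The windows of Ifit1 and Rsad2 are shown because both genes were over 3-fold lower at high counts. Capitals mark the interferon-stimulated response element, searched as GAAA, any 2 bases and GAAA again, on either strand. Ifit1 is on the plus strand at chr19:34640639-34640938 and Rsad2 on the minus strand at chr12:26456403-26456702 (GRCm38.p6, RefSeq).
Ifit1: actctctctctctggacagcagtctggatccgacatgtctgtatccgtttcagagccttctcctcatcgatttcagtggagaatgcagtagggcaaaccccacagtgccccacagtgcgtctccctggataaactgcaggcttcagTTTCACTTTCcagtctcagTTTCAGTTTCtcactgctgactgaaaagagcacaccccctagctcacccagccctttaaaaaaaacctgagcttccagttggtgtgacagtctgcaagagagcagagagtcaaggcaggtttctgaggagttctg
Rsad2: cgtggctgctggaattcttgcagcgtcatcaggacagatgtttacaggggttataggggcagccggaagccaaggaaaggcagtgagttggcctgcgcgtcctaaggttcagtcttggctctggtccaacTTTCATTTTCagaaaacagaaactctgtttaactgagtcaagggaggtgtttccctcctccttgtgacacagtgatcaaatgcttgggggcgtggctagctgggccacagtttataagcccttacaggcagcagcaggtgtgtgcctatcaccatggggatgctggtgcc
Ifit1 held 2 such elements and Rsad2 held 1. Over all 32851 windows 3.44% held one. Of the 9 lower interferon genes with a window 5 held it, and of the 12 other ranked interferon genes with a window 6 held it.

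The median and both quartiles of interferon UMIs per neutrophil were lower in the p38i library. Whether the cells or the mix of neutrophil subsets changed was not tested. At 1500 UMIs per cell, the summed UMIs of the interferon genes had a median of 7 (quartiles 3 and 18) per vehicle neutrophil and 4 (2 and 9) per p38i neutrophil. Cells with 10 or more such UMIs made up 41.2% (38.9 to 43.6) of vehicle and 24.9% (23.1 to 26.8) of p38i neutrophils. In the p38KO library the median was 12, and Ifit1 stood at 820 CPM, above the vehicle. Dusp1 was lower in p38i at every interferon level. Neutrophils with 0 to 2 interferon UMIs had 4.58 Dusp1 UMIs per cell in the vehicle and 1.52 in the p38i library, and those with 10 or more had 3.19 and 1.14.

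In monocytes all 28 ranked members had a log2 ratio below 0, with a median of -0.39 against 0.04 over all genes, and 2 were at least 2-fold lower, beside 0.512% of all genes, neither of them without 3 cells. Ifit3 in monocytes stood at 61.9 and 28.6 CPM (-1.12, and -0.78 without 3 cells). In NK cells 4 of 12 ranked members were at least 2-fold lower (1.72% of all genes), 1 of them without 3 cells, with a median of -0.49. In T cells it was 3 of 24 (0.523%), in DC 3 of 15 (0.898%) and in macrophages 1 of 24 (0.668%), and in these classes 0 stayed past the limit without 3 cells. The medians were -0.09, -0.19 and 0.04, and in DC 1 member was 2-fold higher. Whether the medians differ between classes was not tested.

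**Figure D5:**
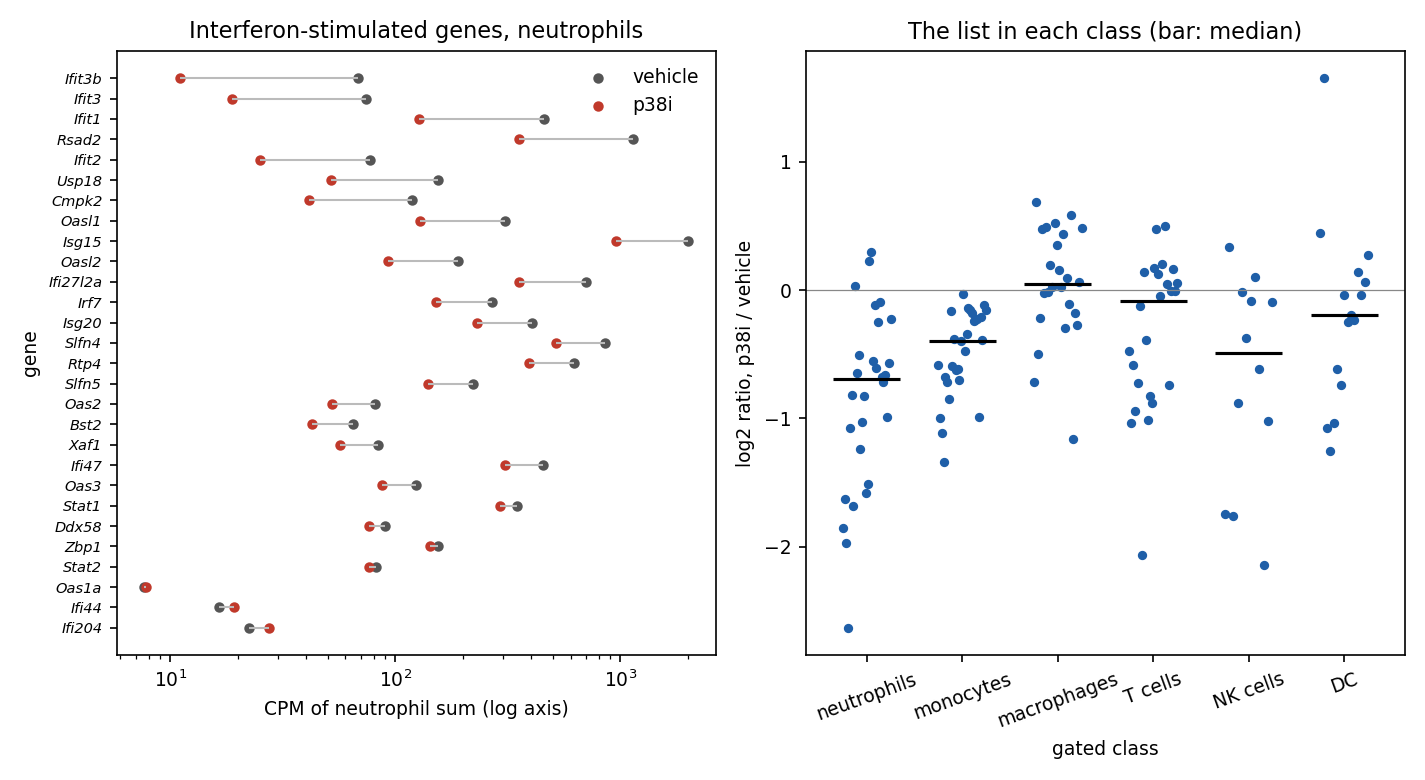
Left, CPM on a log axis of the 28 ranked type I interferon-stimulated genes in vehicle (gray) and p38i (red) neutrophils, in which 25 genes have the red point at the lower value. Right, log2 ratio of p38i to vehicle for each ranked gene of the list in each class, with a bar at the median, which is -0.69 in neutrophils and 0.04 in macrophages.

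Saa3 had the most counts of the genes at least 2-fold higher in p38i neutrophils. This acute-phase serum amyloid stood at 406.5 CPM in the vehicle and 1364 CPM in the p38i library (log2 ratio 1.75, 1.68 to 1.81, and 1.66 without 3 cells). At 1500 UMIs it was detected in 128 of 1751 vehicle neutrophils (6.13% to 8.63%) and 416 of 2075 p38i neutrophils (18.3% to 21.8%). T cells, which should lack it, had a UMI in 0.556% and 0.310% of cells at the same 1500 UMIs. Before thinning, the medians were 5101.5 and 3915 UMIs in T cells and 2529 and 2274 in neutrophils. Saa3 stood at 105 CPM in p38KO neutrophils. Cd177, a surface protein of neutrophils, stood at 66.7 and 149.6 CPM (1.16, and 1.07 without 3 cells) with 164 and 389 positive cells. Emp1, a membrane protein, held 37 and 207 counts (2.26) in 20 and 65 cells, and the adenosine receptor gene Adora2b at 2.42 and 8.62 CPM (1.83). Arg1, the arginase that depletes extracellular arginine, stood at 19.9 and 65.0 CPM (1.70, and 1.13 without 3 cells) with 53 and 67 positive cells. The top-ranked gene, the basophil protease gene Mcpt8 (0.745 and 33.4 CPM), came from 6 p38i cells, and the basophil and mast cell gene Cpa3 stood at 0.186 and 0.479 CPM in these neutrophils.

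Several abundant chemokine and AP-1 transcripts of neutrophils were lower by less than 2-fold. Ccrl2, a chemerin-binding receptor, stood at 1544 and 817 CPM (log2 ratio -0.92, -0.97 to -0.87). The inflammatory chemokine genes Ccl3 and Ccl4 stood at 1217 and 712 CPM (-0.77) and at 1303 and 735 CPM (-0.83). Jun had a log2 ratio of -0.54, Junb of -0.34, and Cebpb, a myeloid transcription factor, of -0.46. Of 13 ranked CC chemokines and receptors 4 were at least 2-fold higher and 0 lower, beside 1.9% and 0.513% of all genes, and 1 of the 4, Ccl24, stayed so without 3 cells. Of 18 immediate-early genes 1 was 2-fold higher and 0 lower. Of the 15 ranked mRNAs on a list of AU-rich p38 and MK2 targets, 0 were 2-fold lower and 1 was 2-fold higher, with 11 below 0 and a median of -0.11. Isoc2b, a gene of the isochorismatase family, was lower at 42.3 and 10.7 CPM (-1.98) in 190 and 62 positive cells. Among 18 neutrophil granule genes 15 were ranked, 3 were 2-fold higher and 0 lower, beside the same shares of all genes, and 1 of the 3 stayed past the limit without 3 cells.

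In monocytes the lower genes included early-response genes and Ptgs2 and Osm. Of the 20 immediate-early genes 18 were ranked, and 4 were at least 2-fold lower and 0 higher, beside 0.512% and 0.841% of all genes, with a median of -0.47, and 3 of the 4 stayed past the limit without 3 cells. Nr4a2, an orphan nuclear receptor, stood at 20.4 and 4.94 CPM (-2.05, and -1.71 without 3 cells). Fosb stood at 66.1 and 24.4 CPM (-1.44) and the stress-induced factor Atf3 at 261 and 130 CPM (-0.82 without 3 cells). Among the AU-rich targets 3 of 16 ranked members were 2-fold lower, 1 of them without 3 cells, 0 were higher, and the median was -0.62. The interleukin-1 and inflammasome list had 0 of 11 members 2-fold apart and a median of -0.07. Ptgs2, which encodes the prostaglandin-forming enzyme COX2, stood at 203 and 82.3 CPM (-1.30, -1.46 to -1.14, and -1.16 without 3 cells), in 177 of 439 vehicle and 228 of 752 p38i cells. Osm, the cytokine oncostatin M, stood at 159.8 and 61.9 CPM (-1.37, -1.55 to -1.19).

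A few abundant transcripts of monocytes were lower by less than 2-fold. Il1b stood at 2062 and 1365 CPM (-0.60), the matrix protein gene Thbs1 at 713 and 366 CPM (-0.96), and Vegfa at 351 and 209 CPM (-0.75). Cxcl9, a ligand of Cxcr3, stood at 373 and 159.5 CPM (-1.22), and at -0.71 without 3 cells. Txnip, the inhibitor of thioredoxin, was higher at 74.6 and 158 CPM (1.08, 0.90 to 1.27, and 1.04 without 3 cells), with positive cells at 9.34% and 19.3% at 1500 UMIs. The p38KO share of Txnip-positive monocytes was 20.7%. Hist1h1d, a linker histone gene, was lower at 17.0 and 5.26 CPM (-1.69). The highest rank, Jchain of plasma cells, held 1 and 884 counts, of which 744 were in 1 cell. Cd7, a lymphocyte surface gene, was higher at 4.37 and 21.2 CPM in 7 and 26 monocyte-gated cells. The lymphocyte genes Cd8b1 and Nkg7 were also among the 10 highest ranks, and Siglech, a marker of plasmacytoid DC, stood at 28.2 and 49.3 CPM. The part of such cells in the monocyte share and values was not tested. Timd4, a receptor for phosphatidylserine, was lower at 13.8 and 0.638 CPM in 6 and 1 cells.

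In macrophages Rgs1 and Junb were among the lower genes. Of 14 ranked immediate-early genes 2 were 2-fold lower and 0 higher, beside 0.668% and 0.334% of all genes, 1 of the 2 without 3 cells, with 7 above 0 and a median of -0.04. Rgs1 stood at 567 and 134 CPM (-2.08, -2.25 to -1.92) and Junb at 560.5 and 265 CPM (-1.08, and -0.86 without 3 cells). Among the AU-rich targets 5 of 14 ranked members were 2-fold lower and 1 higher, with a median of -0.69, and without 3 cells 0 of the 5 but the 1 higher gene stayed past the limit. Il1b stood at 725 and 301 CPM (-1.27, -1.39 to -1.15, and -0.97 without 3 cells). The monocyte chemoattractants Ccl2 and Ccl7 stood at 468 and 220.5 CPM (-1.08, and -0.68 without 3 cells) and at 311 and 121 CPM (-1.36, and -0.78). Cxcl9 stood at 1294 and 658 CPM (-0.98), and Ptgs2 at 41.6 and 16.2 CPM (-1.37, and -0.30 without 3 cells). Osm was lower at 41.3 and 14.0 CPM (-1.55, and -1.19 without 3 cells).

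The gene of the AU-rich list that was higher in macrophages was Tnf. It stood at 5.02 and 14.7 CPM (1.55, 0.65 to 2.54) from 14 and 42 counts in 12 and 31 cells, and stayed at 1.27 without 3 cells. Map3k14, the kinase NIK of the alternative NF-kB pathway, stood at 7.54 and 19.7 CPM (1.38) in 17 and 45 cells. Txnip was again higher, at 81.1 and 179 CPM (1.15, 0.92 to 1.38), and was detected at 1500 UMIs in 9.80% and 26.8% of macrophages. The p38KO share was 18.4%. Ccl24, an eotaxin made by tissue macrophages, stood at 283.5 and 574 CPM (1.02, and 0.53 without 3 cells). Ppbp of platelets, the lowest rank, held 74 and 7 counts, and 65 of the 74 were in 1 vehicle cell.

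T cells had lower Cd69, Rgs1, Fosb and Zfp36l2 in p38i, and these stayed 2-fold lower without 3 cells. Of 17 ranked immediate-early genes 3 were 2-fold lower and 0 higher, beside 0.523% and 1.29% of all genes, with 6 above 0 and a median of -0.30. Cd69, which retains lymphocytes in tissue, stood at 206 and 68.8 CPM (log2 ratio -1.58, -1.81 to -1.36) and was detected at 1500 UMIs in 22.2% and 9.91% of T cells, beside 1.14% and 1.16% of neutrophils. Rgs1 stood at 409 and 142 CPM (-1.53), Fosb at 35.8 and 7.89 CPM (-2.18) and Jun at 223.5 and 100.6 CPM (-1.15). Zfp36l2, an RNA-binding relative of tristetraprolin, stood at 668 and 247 CPM (-1.43, -1.55 to -1.32), and 56.7% and 31.1% of cells had a UMI. Of p38KO T cells 31.5% had a Zfp36l2 UMI, near the p38i share, and 18.9% a Cd69 UMI, nearer the vehicle share. Dusp2, Tsc22d3 and the chaperone gene Hspa1b had log2 ratios of -1.23, -1.24 and -1.14, and Hspa1b was at -0.93 without 3 cells. Among the 7 ranked inhibitory receptor genes 0 were 2-fold apart either way and the median was -0.16. Of these 3 were above 0 and 4 below, with log2 ratios from -0.68 to 0.50. Ctla4 stood at 234 and 146 CPM (-0.68, -0.85 to -0.52) and Pdcd1 at 211 and 188 CPM (-0.16).

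Without 3 cells, 2 of the 10 lowest ranks of T cells and 8 of the 10 highest stayed past the limit. All 15 cytotoxic and effector genes on the list were ranked, 5 were at least 2-fold lower and 0 higher, beside 0.523% and 1.29% of all genes, and 0 of the 5 stayed past the limit without 3 cells. Gzmf held 1037 and 95 counts, with 874 in 1 vehicle cell, and Gzmg held 198 counts in 1 vehicle cell and 0 in the p38i library. On the higher side the ranking held myeloid genes. Lyz2, the lysozyme gene of myeloid cells, stood at 162 and 508 CPM (1.65, and 0.80 without 3 cells). Itgam stood at 11.5 and 68.8 CPM (2.58, and 2.08 without 3 cells) in 18 and 46 cells. Nos2 stood at 1.48 and 15.5 CPM (3.39, and 2.04 without 3 cells) in 5 and 16 cells. Slpi stood at 25.1 and 234 CPM with 688 of its 741 counts in 1 cell. T-gated cells with 10 or more UMIs of the neutrophil and macrophage markers and Lyz2 numbered 26 of 540 in the vehicle and 37 of 646 in the p38i library. Without them Lyz2 was at a log2 ratio of -0.49, and 44 rather than 104 genes were 2-fold higher.

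In NK cells 28 of 4018 ranked genes stayed 2-fold lower without 3 cells. In neutrophils it was 18 of 6632, in monocytes 13 of 8200, in macrophages 11 of 7486, in T cells 12 of 8032 and in DC 4 of 3896. The NK sums held 727452 and 753514 UMIs, against 5365746 and 6263686 in neutrophils, so NK ratios carry more counting error. Whether the classes differ in this was not tested. Rgs1 stood at 741 and 122 CPM (-2.60, -2.94 to -2.28) and was detected at 1500 UMIs in 49.6% (40.2 to 59.0) and 16.7% (10.3 to 24.8) of 117 and 114 cells, beside 1.83% and 1.49% of neutrophils. Zfp36l2 stood at 955 and 267 CPM (-1.84), with 72.6% and 42.1% of cells positive. In p38KO NK cells these shares were 18.2% for Rgs1 and 37.9% for Zfp36l2. Jun stood at 296 and 103.5 CPM (-1.51) and Cd69 at 103 and 25.2 CPM (-2.03). Tnfaip3, the NF-kB feedback inhibitor A20, stood at 126.5 and 38.5 CPM (-1.72), while Nfkbie, another inhibitor of NF-kB, was higher at 19.2 and 53.1 CPM (1.46). Cxcr4, the receptor of Cxcl12, stood at 131 and 43.8 CPM (-1.58) and the linker histone gene Hist1h1c at 100.3 and 25.2 CPM (-1.99). Irf7, a factor of the interferon response, stood at 81.1 and 23.9 CPM (-1.76).

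Of the 10 highest ranks in NK cells 0 stayed past the limit without 3 cells. Ccl24 held 3 and 343 counts (6.79, 5.23 to 9.07), with 186 of the 343 in 1 of 3 positive cells. Arg1 held 5 and 123 counts, 84 of them in 1 cell, and Cd74, the invariant chain of MHC class II, held 187 and 557 counts, 444 of them in 1 cell. The 6 ranked MHC class II genes had a median of 1.37 in NK cells, beside -0.22 in DC and -0.01 in macrophages, and none of the 4 that were 2-fold higher in NK cells (of the 0.996% so called) stayed so without 3 cells.

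In DC the highest ranks included chemokine and maturation genes carried by few cells. Ccr7, which guides DC to lymph nodes, stood at 15.5 and 104 CPM (log2 ratio 2.75, 1.76 to 3.92) in 3 and 11 cells. The chemokine genes Ccl22 and Ccl17 stood at 3.44 and 169 CPM (5.62, 3.74 to 8.67) in 1 and 7 cells and at 3.44 and 111 CPM in 2 and 10 cells. Fscn1, the actin-bundling protein of mature DC, stood at 44.7 and 185 CPM (2.04) in 2 and 10 cells, and was at 0.28 without 3 cells, while Ccl22 stayed at 4.09. Cd63, a lysosomal membrane protein, stood at 3.44 and 96.2 CPM in 2 and 13 cells. Gadd45b, a stress-response gene, was spread more widely, at 41.3 and 138 CPM (1.74) in 13 and 41 cells. Ccr7 and Fscn1 were also among the markers used to check this class. The Flt3 gate took in plasmacytoid DC as well, and their markers Siglech and Ccr9 stood at 681 and 685 CPM and at 575 and 411 CPM.

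The lowest DC gene was Ccl4, at 399 and 31.7 CPM (-3.65, -4.28 to -3.09, and -2.03 without 3 cells) in 13 and 8 cells. Fosb stood at 179 and 49.8 CPM (-1.84), Cd69 at 143 and 45.3 CPM (-1.66, and -0.81 without 3 cells) and Rhob, a small GTPase, at 58.5 and 18.1 CPM (-1.69). Irf7 stood at 311 and 130 CPM (-1.26), and this was -0.26 without 3 cells. With 43 and 84 cells, a difference in DC cannot be told apart from a different mix of the subsets that the gate takes in.

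Several of the remaining lists are given by their counts, and the others are not counted here. The p38 kinases and their partners, 18 genes with 5 to 13 ranked per class, had 0 members 2-fold apart in all classes but DC. There 1 of 5 ranked members, Gadd45b, was higher, beside 2.16% of all genes. MHC class I presentation genes had 0 of 9 or 10 ranked members 2-fold apart in every class, with medians from -0.22 to 0.06. The 14 monocyte genes and the 11 granulocyte genes that the study picked on these same libraries are not independent evidence of their direction. In monocytes 3 of 13 ranked genes of the first list were 2-fold lower and 0 higher, beside 0.512% and 0.841% of all genes, with 12 below 0 and 1 past the limit without 3 cells, and in neutrophils 0 of the 11 granulocyte genes were 2-fold apart, with 9 below 0. The 3 macrophage genes picked by the study had 2 ranked members in macrophages and 0 of them 2-fold apart. The list of the CXCR2 axis and neutrophil chemoattractant receptors had 3 of 11 ranked members 2-fold lower in monocytes, 3 of 9 in macrophages and 3 of 4 in NK cells, beside 0.512%, 0.668% and 1.72% of all genes, and 0, 0 and 1 of them stayed so without 3 cells.

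Glycolysis and hypoxia genes had 18 to 23 of 24 members ranked per class and 0 at least 2-fold lower. In neutrophils 1 of 23 was higher, in T cells 1 of 22 and in DC 1 of 19, beside 1.9%, 1.29% and 2.16% of all genes. None of these stayed past the limit without 3 cells, and in the other classes 0 were higher. TNF and NF-kB feedback genes, 19 in all, had medians from -0.07 to 0.30. In NK cells 2 of 14 ranked members were lower, Tnfaip3 among them, and 1 was higher, beside 1.72% and 0.996% of all genes. In macrophages 1 of 16 was higher, in T cells 1 of 17 and in DC 1 of 12, beside 0.334%, 1.29% and 2.16%, and 0 were lower. Cell cycle genes had 18 of 18 ranked in macrophages and T cells, with 0 and 1 higher, 0 lower and medians of -0.18 and 0.15. In NK cells 3 of 11 were higher and 1 lower (median 0.51), in monocytes 2 of 8 were higher (0.47) and in DC 1 of 4 (0.55), beside 0.996%, 0.841% and 2.16% of all genes, and 0 of the higher ones stayed past the limit without 3 cells. Genes of the ATF4 and unfolded protein response had 0 members lower in any class. In DC 1 of 8 ranked members was higher, beside 2.16% of all genes, and it did not stay past the limit without 3 cells. Heat-shock chaperones were lower in 1 of 10 neutrophil, 2 of 12 macrophage and 2 of 11 T cell members. The shares of all genes were 0.513%, 0.668% and 0.523%, and 0 of these chaperones stayed past the limit without 3 cells.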

How the data were processed

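The deposited files hold raw UMI counts per gene and barcode (32285 genes), which the authors made from 10x 3' reads with Cell Ranger (version 6.0.0 per the file headers) on mm10, and their notes name Seurat 5 and R 4.2.1. From these counts cells were filtered at 1500 UMIs, 300 genes and 20% mitochondrial counts, and gated with 2 UMIs for the myeloid genes and 1 UMI for the lymphoid and DC genes. The monocyte gate yielded to the macrophage, T, NK and DC gates. Cells of the neutrophil and monocyte gates alone went to the one with more UMIs. Ties and cells that met any other combination were left out, and no doublet caller was run. Counts were summed per class, and the p38i to vehicle ratio has an exact conditional binomial 95% interval. CPM intervals are exact Poisson and shares are Clopper-Pearson, and all cover counting error only. No count model or p-value was possible with 1 library per group. Ranking took genes with a summed count of 50 or more, and gate genes, mitochondrial and ribosomal protein genes, unnamed gene models and antigen receptor segments were left out. Genes named are the 10 highest and 10 lowest per class past 2-fold, members of 30 gene lists, and genes past 2-fold in 4 or more classes, plus further genes chosen after their values were seen. Members and lists were chosen with earlier results of these data known. Percentages of cells with a UMI of a gene other than Ptprc used cells thinned to 1500 UMIs. Unless thinning or 1500 UMIs is stated, class shares and numbers of positive cells came from cells at full depth. Alternatives were other gates, filters, scalings, count minimums and fold limits. Leaving out 3 cells per gene and leaving out T and NK cells with 10 or more myeloid UMIs were added after the data were seen. Promoter windows came from RefSeq on GRCm38.p6, matched by symbol. Scripts were tested on simulated data and ran in Python 3.11.15 with numpy 2.4.6, scipy 1.17.1, pandas 2.3.3 and matplotlib 3.10.9.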

Additional observations from a re-analysis of the deposited data

Results flagged for a closer look

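Ccl24 stood on opposite sides in different classes, with log2 ratios of p38i to vehicle of 2.22 in neutrophils, 1.02 in macrophages, 4.58 in T cells and 6.79 in NK cells but -2.46 in DC. The difference between classes was not tested. In T cells 284 of its p38i counts were in 1 cell, in NK cells 186 of 343, and in DC 87 of 123 vehicle counts were in 1 cell. Gzmf had a log2 ratio of 2.78 in NK cells and -3.35 in T cells, which was not tested either, and 118 of 149 p38i NK cell counts and 874 of 1037 vehicle T cell counts were in 1 cell each. Ccl24 and Gzmf were among 17 genes 2-fold apart in opposite directions in different classes, and 0 of the 17 stayed so without 3 cells. Without 3 cells Ccl24 was at -2.52 in NK cells and 5.38 in DC, and Gzmf at -5.40 in NK cells and 1.31 in T cells.

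Expression in cells that met no gate was compared between the libraries above for Dusp1 alone, and some of their other genes stood apart. Camp, a granule gene of neutrophil precursors, stood at 0.460 CPM in ungated vehicle cells and 326 CPM in ungated p38i cells, with 829 of its 831 counts in 1 cell. Ngp, another such gene, stood at 14.7 and 417 CPM, with 1031 of its 1062 counts in 1 cell.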

How the results depend on the processing

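No paired analysis was possible because each group had 1 library, and leaving out a replicate was not run for the same reason. Median-ratio scaling turned no direction among the 127 values recomputed. Doubled gates and no cell filter turned none of the 127 either, thinning before gating turned 3, and leaving out 3 cells turned 10. The 127 values do not cover all top-ranked genes. Without 3 cells, 9 of the 10 highest ranks of NK cells turned direction. So did 5 of the 10 lowest ranks in monocytes and 5 of 10 in T cells. None of the 10 lowest ranks of neutrophils or the 10 highest of DC did. The cause of a change was not tested unless it follows from fewer cells or genes.

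Shares of kept cells, vehicle first, shifted as follows. With thinning before gating they were 39.2% and 36.9% for neutrophils, 8.56% and 10.5% for monocytes, 11.5% and 10.8% for T cells, 1.94% for p38i NK cells, and 0.340% and 0.522% for DC. With no cell filter they were 43.5% for vehicle neutrophils, 10.1% and 12.2% for monocytes, 2.96% for p38i macrophages, 12.3% and 10.7% for T cells and 1.34% for p38i DC. With cells of several gates assigned by order they were 5.29% and 4.19% for macrophages and 15.8% and 15.2% for T cells. With doubled gates they were 36.1% and 30.9% for neutrophils, 13.9% for p38i monocytes, 11.7% for p38i T cells, and 0.707% and 0.835% for DC.

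Counts of genes 2-fold higher and lower in p38i depended most on the count minimum. With at least 1 count in each library and no other minimum they were 858 and 557 in neutrophils, 535 and 437 in monocytes, 378 and 534 in macrophages, 753 and 359 in T cells, 699 and 802 in NK cells and 878 and 627 in DC. With at least 200 counts they were 19 and 16, 6 and 19, 2 and 16, 28 and 16, 9 and 16, and 10 and 6 in the same order of classes. A 1.5-fold limit gave 600 and 145, 371 and 177, 191 and 298, 482 and 178, 184 and 321, and 321 and 203. Recounted over all ranked genes without 3 cells, which also lets genes cross the limit anew, there were 51 higher in neutrophils, 35 and 16 in monocytes, 24 lower in macrophages, 35 and 23 in T cells, 7 higher in NK cells and 46 and 10 in DC. Thinning gave 45 and 73 in monocytes, 19 higher in NK cells and 55 and 75 in DC. Doubled gates gave 196 higher in neutrophils, 39 higher in macrophages and 69 lower in DC. Assignment by order gave 84 lower in macrophages, and the mean of per-cell CPM gave 69 and 118 in macrophages and 106 lower in NK cells. Without lymphoid cells that held 10 or more myeloid UMIs, 44 were higher in T cells and 21 in NK cells.

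Among the values recomputed, some log2 ratios turned direction under an alternative. Without 3 cells they were 0.48 for Cxcl2 in DC, -0.60 for Jchain in monocytes, 2.74 for Ppbp in macrophages, 1.31 for Gzmf and -0.91 for Slpi in T cells, -2.52 for Ccl24, -0.26 for Arg1, -2.82 for Cd74 and -5.40 for Gzmf in NK cells, and 5.38 for Ccl24 in DC. Thinning gave 1.56 for Cxcl2 in DC, -3.49 for Jchain in monocytes and -1.03 for Gzmf in NK cells. Without lymphoid cells with myeloid UMIs, Lyz2 was at -0.49 and Ccl24 at -1.70 in T cells, and Ccl24 was at -1.47 and Cd74 at -0.57 in NK cells. Cd74 in NK cells was also at -0.14 with assignment by order and at -0.034 with per-cell CPM.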
